A study of Mus musculus with 9 samples.

Results

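Immediate early genes are switched on within minutes of a stimulus from factors that the cell already holds, with no need for new protein, and most of their transcripts are short-lived. The group described here has 10 members of the 18634 genes in the deposited table, chosen by name: Fos, Fosb, Jun, Junb, Jund, Egr1, Atf3, Dusp1, Ier2 and Nr4a1. In brain tissue they are read as marks of recent neuronal firing, and in cell suspensions they are also known to be induced by the handling of the cells. Brainstem, cortex and hypothalamus were collected from mice aged 9 to 11 weeks in 3 sleep groups, namely normal sleep (NS), sleep deprivation for 12 h (SD), and recovery sleep (RS) after that deprivation. The labels put recovery at 12 h in one place and at 24 h in another, and the paper states 24 h. All tissue was taken at ZT12, the time of lights off, dissociated with papain, freed of myelin debris with beads and run as droplets with the 10x Chromium kit for 3′ ends. The mice were wild-type C57BL/6 J, 3 of them were pooled for each region and sleep group, and each of the 9 combinations gave 1 library, so that no value below has a replicate and no comparison has a p-value.

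The table holds 29571 cells from 9 libraries, numbered here 1 to 9 in the order in which their codes appear. No label ties those codes to a region or sleep group, and the number carries no such meaning. Library 7 was the exception, since it held all 1999 barcodes listed with a cell type for brainstem NS, against 5 to 13 of them in each other library. For the other 8 libraries neither region nor sleep group is known here, and no difference between libraries below can be read as an effect of sleep. Libraries held 2575 to 3916 cells, 1522766 to 5488950 unique molecular identifiers (UMIs, which count each captured transcript once) and medians of 402 to 1055 UMIs per cell. Of 29015 distinct barcodes, 549 were found in 2 or more libraries. Libraries 4, 5 and 6 stood apart: pituitary hormone genes (Gh, Prl, Pomc, Cga, Lhb, Fshb and Tshb) took 30.3%, 30.0% and 37.9% of their UMIs, against at most 0.00959% elsewhere. Values for those libraries are therefore given both ways where it matters, with the hormone genes in the total and without them.

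The members differ in the kind of molecule they encode. Fos and Fosb pair with Jun, Junb or Jund to form the AP-1 transcription factor, and Atf3 is a stress-induced relative that can pair with Jun proteins. Egr1 is a zinc-finger transcription factor, and Nr4a1 is an orphan nuclear receptor that is active without a ligand. Dusp1 is a phosphatase that switches off MAP kinases, the enzymes that carry many of the inducing signals, and so acts as a brake. Ier2 is a nuclear protein of the same early wave, and Jund differs from the others in that many resting cells express it. A known route to these genes runs through CREB, which binds the cAMP response element, and another through serum response factor, which binds the CArG box.

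The promoters of Fos, Junb, Dusp1, Nr4a1 and Jun are shown because the text below turns on these genes and because they differ in the CREB-type letters they hold. Each line is the 250 bases before the RefSeq start (GRCm38.p6), 5′ to 3′ on the strand of the gene. Capitals mark TGACG or its reverse complement CGTCA, the core of the cAMP response element.
Fos: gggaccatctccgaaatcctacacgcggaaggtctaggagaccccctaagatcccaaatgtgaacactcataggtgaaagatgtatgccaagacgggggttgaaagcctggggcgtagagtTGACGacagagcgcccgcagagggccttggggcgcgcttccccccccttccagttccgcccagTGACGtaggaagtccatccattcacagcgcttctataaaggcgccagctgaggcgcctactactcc
Junb: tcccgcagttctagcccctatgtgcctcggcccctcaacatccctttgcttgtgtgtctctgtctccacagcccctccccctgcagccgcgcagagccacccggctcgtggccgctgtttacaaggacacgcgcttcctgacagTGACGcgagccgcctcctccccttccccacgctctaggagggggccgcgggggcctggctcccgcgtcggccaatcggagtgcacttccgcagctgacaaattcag
Dusp1: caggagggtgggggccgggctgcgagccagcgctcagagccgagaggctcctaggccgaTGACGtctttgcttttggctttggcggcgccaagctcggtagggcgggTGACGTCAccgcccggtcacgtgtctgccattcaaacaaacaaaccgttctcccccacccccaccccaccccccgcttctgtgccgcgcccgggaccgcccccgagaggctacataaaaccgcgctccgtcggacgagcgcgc
Nr4a1: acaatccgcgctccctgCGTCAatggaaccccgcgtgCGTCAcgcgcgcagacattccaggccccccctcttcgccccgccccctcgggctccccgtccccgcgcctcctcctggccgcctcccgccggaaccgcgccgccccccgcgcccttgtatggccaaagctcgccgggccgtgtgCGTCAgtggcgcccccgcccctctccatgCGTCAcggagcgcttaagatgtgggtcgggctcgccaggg
Jun: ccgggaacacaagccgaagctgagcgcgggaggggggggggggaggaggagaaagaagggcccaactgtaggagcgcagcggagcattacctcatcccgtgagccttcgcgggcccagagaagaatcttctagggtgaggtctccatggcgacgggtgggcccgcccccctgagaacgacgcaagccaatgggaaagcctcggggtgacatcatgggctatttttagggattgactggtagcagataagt
These windows lie at chr12:85473640-85473889 (Fos, plus strand), chr8:84978749-84978998 (Junb, minus strand), chr17:26508473-26508722 (Dusp1, minus strand), chr15:101266596-101266845 (Nr4a1, plus strand) and chr4:95052223-95052472 (Jun, minus strand). Of the 10 members, 8 had a promoter in the RefSeq table, and Egr1 and Ier2 had none there. On either strand, TGACG was present in 6 of the 8, namely Fos, Fosb, Junb, Atf3, Dusp1 and Nr4a1, against 17.8% of all 32851 windows of that length. Nr4a1 held it 4 times, with the motif nearest the start 40 bases before it, and Fos 2 times, at 129 and 66 bases before the start. Dusp1 held the palindrome TGACGTCA, found in 1.55% of all windows, at 143 bases before the start. Neither Jun nor Jund had the TGACG letters in the window. RefSeq starts are not always the outermost GENCODE start of the gene, and for Junb and Jund the bases just after the RefSeq start were not found in a GENCODE transcript of the gene, so these 2 windows may lie away from the start used. TATAAA was present in Fos alone among the 8, at 33 bases before the start, against 12.4% of windows. The CArG box was in 0 of the 8 windows, against 1.47% of all, and TGACTCA or TGAGTCA, the AP-1 site, in 0 of the 8, against 4.46%. GGGCGG, the GC box, was in 6 of the 8, against 32.7%. Each motif was searched on both strands, and the palindrome is also counted as TGACG. By the GENCODE annotation of GRCm38, Jun, Junb, Jund and Atf3 overlap a gene on the other strand (Junos, Prdx2, Gm11175 and Gm24748, respectively). Dusp1 overlaps Gm8225 and Ergic1 on the other strand, and AC122252.4 and AC122252.1 on its own. Counts could be shared where genes overlap on the same strand, as for Dusp1, and this was not tested. A match describes the letters only, and a missing match says no more than that they are not in these 250 bases.

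Levels differed between libraries by more than counting error for each of the 10 members. A level is the sum of UMIs over cells, scaled by the total of those cells to CPM, with a 95% Poisson interval that covers counting error only. Levels are compared within a gene and not between genes. Fos stood at 137, 103 and 81.2 CPM in libraries 1, 2 and 3, at 342, 755 and 680 CPM in libraries 4, 5 and 6, and at 209, 284 and 253 CPM in libraries 7, 8 and 9. Library 5 was thus 9.31-fold above library 3, and the 3 libraries rich in hormone transcripts were the highest 3. With hormone genes out of the total, Fos rose further in them, to 492, 1080 and 1095 CPM.

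The other AP-1 members split into those that followed Fos and those that did not. Fosb was at 64.3, 123 and 125 CPM in libraries 4, 5 and 6 and between 10.3 and 23.6 CPM in the other 6. Junb, at 493, 735 and 583 CPM in libraries 4 to 6, was at 201 to 398 CPM elsewhere. Atf3 was highest in libraries 5 and 6, at 90.0 and 67.2 CPM, and lay between 6.72 and 37.1 CPM in the others, library 4 included. Jun had another order: library 7, the brainstem NS library, was at 341 CPM (324 to 359) beside 318 CPM in library 5 and 315 CPM in library 6, and these 3 intervals overlapped. With hormone genes out of the total this order turned, with 507 CPM (483 to 532) in library 6 and 455 CPM (421 to 490) in library 5, both above library 7. Libraries 1, 2 and 3 were lowest for Jun, at 82.7, 110 and 82.5 CPM. Jund varied least among the AP-1 members, from 244 CPM in library 1 to 588 CPM in library 5, a 2.41-fold span.

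Egr1 and Nr4a1 had another order than Fos, highest in libraries 1 to 3 and lowest in libraries 7 to 9. Egr1 was at 246, 294 and 362 CPM in libraries 1, 2 and 3, at 159, 174 and 174 CPM in libraries 4, 5 and 6, and at 37.6, 54.3 and 40.8 CPM in libraries 7, 8 and 9. The 3 sets did not overlap. Nr4a1 had the same 3 steps: 101, 101 and 107 CPM in libraries 1 to 3, 67.3, 67.9 and 56.7 CPM in libraries 4 to 6, and 22.0, 27.0 and 22.6 CPM in libraries 7 to 9. Without hormone genes in the total, libraries 4 to 6 rose to 96.6, 97.0 and 91.3 CPM for Nr4a1 and to 228, 249 and 280 CPM for Egr1, which brought both within the intervals of at least 1 of libraries 1 to 3. Ier2 followed Fos, with 261, 384 and 366 CPM in libraries 4 to 6 against 45.2 to 125 CPM elsewhere. Dusp1 had the narrowest span of the 10, from 99.1 CPM in library 3 to 232 CPM in library 7. With hormone genes out of the total library 5 was highest for Dusp1, at 240 CPM (216 to 267), which overlapped library 7 (218 to 247).

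**Figure D1:**
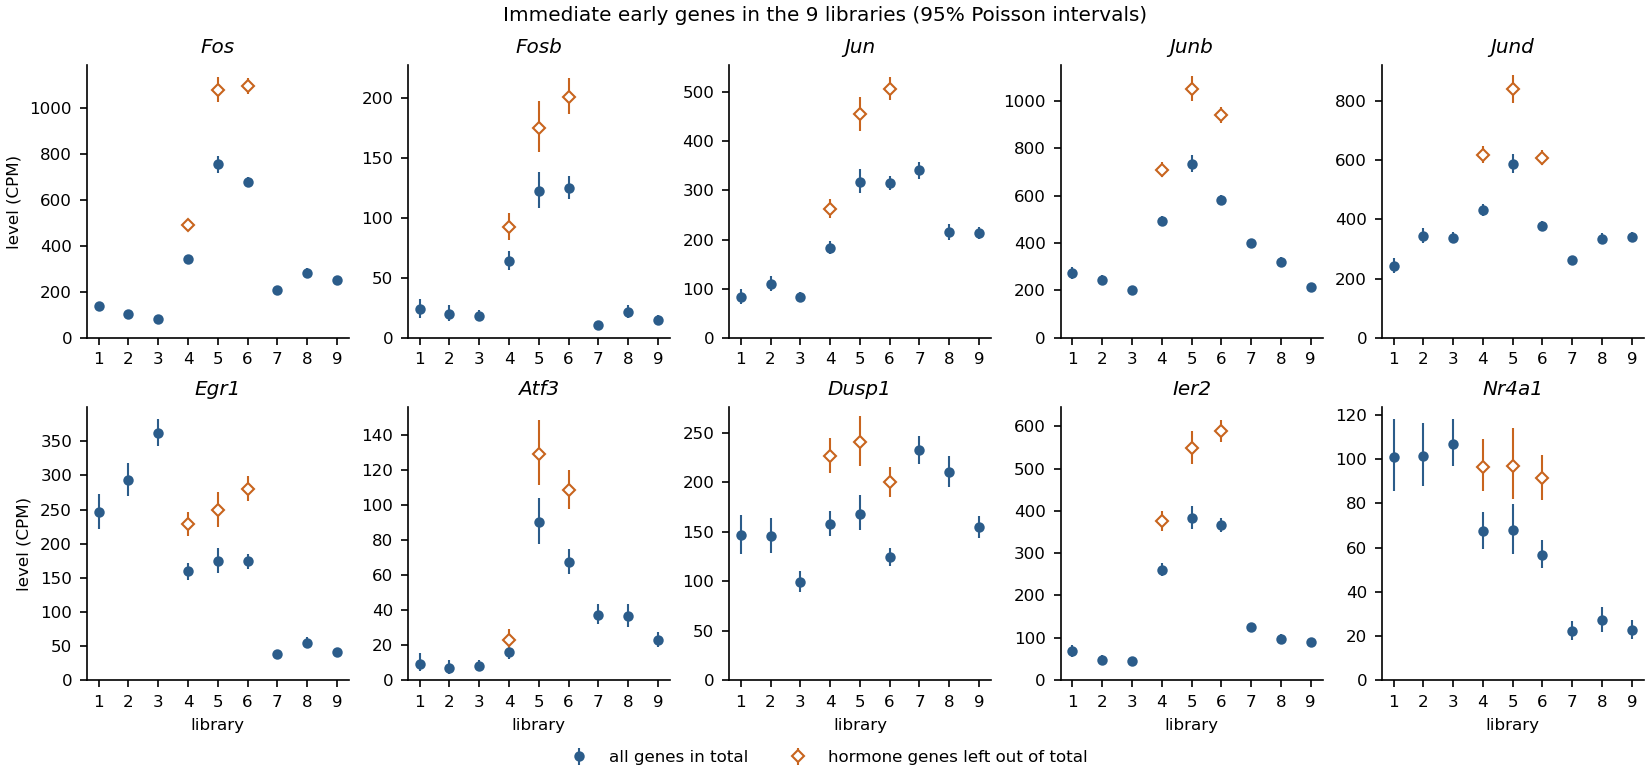
Level of each member (CPM, vertical axis starting at 0) in the 9 libraries (horizontal axis), with bars for 95% Poisson intervals; filled circles use the whole total and open diamonds leave hormone genes out of the total of libraries 4, 5 and 6. Fos, Fosb, Junb and Ier2 are highest in libraries 4 to 6, while Egr1 and Nr4a1 are lowest in libraries 7 to 9.

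Of the 10 members, 6 (Fos, Fosb, Junb, Egr1, Atf3 and Ier2) were at least 2-fold higher in their highest library than in the median of the others, after adding 10 CPM to both, where 29.6% of 9673 genes passed the same mark. With hormone genes out of the totals the count was 7, beside 24.2% of genes, and Jun and Jund replaced Egr1 among them, and without libraries 4, 5 and 6 it was 5 (Fos, Jun, Egr1, Atf3 and Nr4a1), beside 28.6%. The median log2 ratio was 1.18 over the members and 0.64 over all genes tested. The libraries also differed in the cells they held, from clusters described below: neuron-like cells made up 25.2% to 39.3% of libraries 1 to 3 and 3.58% to 15.3% of the others, microglia-like cells 0.689% of library 6 and 25.7% of library 7, and a cluster led by growth hormone (Gh) 25.2% to 42.4% of libraries 4 to 6. In a sum over a library, more cells of a kind and more transcript per cell cannot be told apart, and the values within classes of cells are given below.

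The members were found in a minority of cells each. Jund was found in the largest share over all cells, 24.0%, and Atf3 in the smallest, 2.10%. At least 1 member was found in 30.4% of the cells of library 1 and 58.0% of those of library 4, but cells of library 1 had a median of 402 UMIs and those of library 4 of 869. When each cell was thinned to 500 UMIs, which left 840 of 2575 cells in library 1 and 1557 of 2706 in library 5, the share ran from 29.5% in library 8 to 50.8% in library 5. The thinned share of Fos ran from 2.55% of cells (library 3) to 20.4% (library 5), and that of Egr1 from 1.59% (library 9) to 12.5% (library 2). No cell type here is known to lack these genes. The lowest values were in the hemoglobin-rich cluster (HbVC-like, led by Hbb and Hba genes) of library 7, where any member was found in 2.15% of 93 thinned cells (median 2580 UMIs before thinning), against 35.2% over the whole library.

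In the brainstem NS library, the summed level spanned 11.2-fold across listed types of 50 or more cells, and microglia, the resident immune cells of the brain, held the highest. Whole libraries, which mix cell types, spanned 2.56-fold with hormone genes in the totals and ran from 1330 to 4863 CPM without them. The list used here covers 1999 cells, with 573 endothelial cells, 549 microglia, 230 arterial smooth muscle cells (VSMCA), 188 astrocytes, 168 pericytes, 88 ependymal cells (EPC), 67 macrophages, 55 glutamatergic neurons and 3 types of under 50 cells, and 1 cell of unknown type. In 10 of the 11 types, every marker on the list for that type was at least 2-fold higher than in the other listed cells. In the 43 cells listed as oligodendrocytes 1 of 7 markers was, and Mag, Mobp and Ermn were at 0, so those values are given under the listed name with that reserve. The 10 members summed were at 3676 CPM in microglia (3512 to 3847), 2576 in pericytes (2323 to 2848), 2025 in VSMCA (1870 to 2191), 1421 in macrophages (1176 to 1702) and 1295 in endothelial cells (1209 to 1386). EPC followed at 716 CPM (595 to 855), glutamatergic neurons at 648 CPM (449 to 906) and astrocytes, with 56 UMIs in 188 cells, at 329 CPM (249 to 428). Macrophages and endothelial cells overlapped, as did EPC and glutamatergic neurons, and the other neighbours in this order among types of 50 or more cells did not. The place of pericytes rests in part on a single cell, with 126 of their 381 member UMIs. The 19 cells listed as HbVC were at 523 CPM (332 to 785), of which 13 clustered as endothelial-like and 3 as HbVC-like.

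Among the AP-1 members, microglia stood highest for Jun, Junb and Atf3. Junb was at 1264 CPM in microglia (1168 to 1365, 641 UMIs), against 730 CPM in pericytes, 399 CPM in VSMCA and 52.9 CPM in astrocytes, and no interval overlapped that of microglia. Jun was at 881 CPM in microglia (801 to 967), 361 CPM in macrophages, 333 CPM in endothelial cells and 64.7 CPM in astrocytes. Atf3 was at 122 CPM in microglia (93.7 to 157) and at most 51.9 CPM in any other type. Fos, at 532 CPM in microglia (471 to 600), was not apart from pericytes (460 CPM, 357 to 583), whose interval overlapped that of VSMCA (441 CPM, 370 to 522). In endothelial cells Fos was at 40.1 CPM, and in EPC at 17.6 CPM from 3 UMIs. Fosb was scarce in every listed type of 50 or more cells, with 27.6 CPM in microglia from 14 UMIs and 0 UMIs in 573 endothelial cells, whose interval reached 5.69 CPM.

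Jund, Dusp1 and Ier2 were spread otherwise. Jund was highest in the cells listed as oligodendrocytes (485 CPM, 349 to 655) and in EPC (428 CPM, 336 to 539), the ciliated lining of the ventricles, and EPC reached 5.60-fold the level of astrocytes. It was the one member for which EPC stood above microglia (282 CPM, 238 to 332). Dusp1 had VSMCA (386 CPM, 320 to 462), endothelial cells (370 CPM, 325 to 420) and pericytes (345 CPM, 257 to 453) as its highest 3 types, with overlapping intervals, and microglia at 256 CPM (214 to 304). Ier2 was at 205 CPM in endothelial cells (172 to 243), 203 CPM in pericytes and 193 CPM in microglia, again overlapping. In endothelial cells Egr1 was at 4.63 CPM from 3 UMIs and Nr4a1 at 9.25 CPM from 6. Egr1 was highest in pericytes (108 CPM, 61.8 to 176) and microglia (92.7 CPM, 68.1 to 123), and Nr4a1 in VSMCA (74.7 CPM, 47.3 to 112) and pericytes (67.6 CPM, 32.4 to 124). Most of these pericyte counts came from 47 cells that clustered apart, as described below. Those cells held 14 of 16 Egr1 UMIs, 8 of 10 Nr4a1 UMIs and 40 of 51 Dusp1 UMIs. In glutamatergic neurons, with 52447 UMIs in all, Egr1 rested on 3 UMIs and Nr4a1 on 0.

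**Figure D2:**
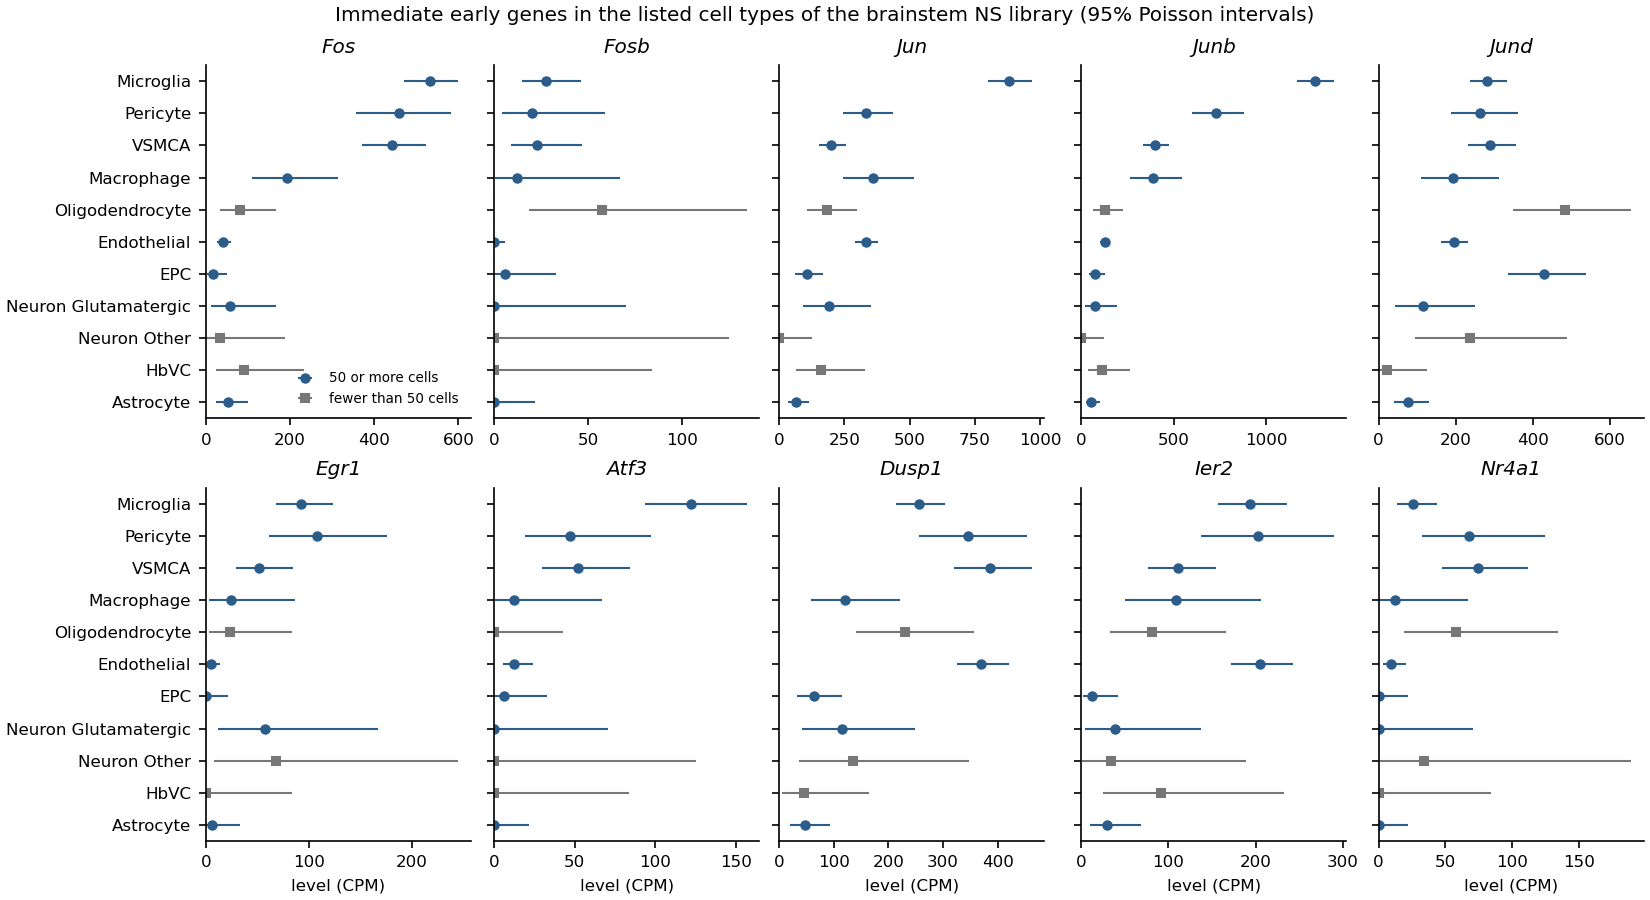
Level of each member (CPM, horizontal axis starting at 0) in the listed cell types of the brainstem NS library, ordered by the summed level, with bars for 95% Poisson intervals; grey squares are types of fewer than 50 cells. Microglia lead for Jun, Junb and Atf3, and VSMCA, endothelial cells and cells listed as pericytes for Dusp1, while astrocytes lie low throughout. Most Dusp1 counts of the listed pericytes come from 47 cells of another cluster.

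Set against the other listed cells, with 10 CPM added to both, 5 members were at least 2-fold higher in microglia (Fos, Jun, Junb, Egr1 and Atf3), where 8.72% of 8958 genes passed, and 0 were at least 2-fold lower, where 23.8% passed. The median log2 ratio in microglia was 1.22 over the members and -0.30 over all genes. In astrocytes all 10 were at least 2-fold lower, beside 24.2% of genes, with medians of -2.07 and -0.26. In EPC 8 were lower, beside 22.3%, with Jund and Fosb as the exceptions, and in glutamatergic neurons 8 were, beside 47.2%. Endothelial cells had 6 members lower, beside 16.7%, and 0 higher, beside 10.3%. In VSMCA, Fos and Nr4a1 were higher, beside 5.06%, and Jun lower, beside 25.5%. In macrophages Atf3 and Dusp1 were lower, beside 38.4%, and 0 were higher, beside 5.59%. In pericytes Egr1 and Nr4a1 were higher, beside 6.8%, and 0 were lower, beside 20.2%. Of the lower calls, the level in the other cells lay within the interval for Fosb, Atf3 and Nr4a1 in glutamatergic neurons (each at 0 UMIs, which allows up to 70.3 CPM), Fosb in astrocytes and Atf3 in macrophages, so these were not detectable differences at this depth.

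The level in pericytes came from a minority of the cells so listed. Of the 168 cells, 47 lay in a cluster led by Dcn, Apod and Ptgds, named fibroblast or leptomeningeal-like from its markers, and these 47 held 334 of the 381 member UMIs. A single cell of the 47 held 126 of these UMIs, and the level without it was not computed. The summed level was 5576 CPM in the 47 cells (4994 to 6207) and 534 CPM (392 to 710) in the other 121. Junb had 106 of its 108 UMIs in the 47 cells and Fos 66 of 68. Jund differed less, at 401 CPM in the 47 cells and 170 CPM in the rest, whose intervals (257 to 596, and 95.4 to 281) overlapped. Without the 47 cells, 0 members were at least 2-fold higher in pericytes, beside 8.29% of genes. The 47 cells had a median of 1237 UMIs and the others of 671. In the 6 listed pericytes with 3 or more members found after thinning, the 7 pericyte markers summed to 3954 CPM, against 15997 CPM in the 158 with fewer.

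**Figure D3:**
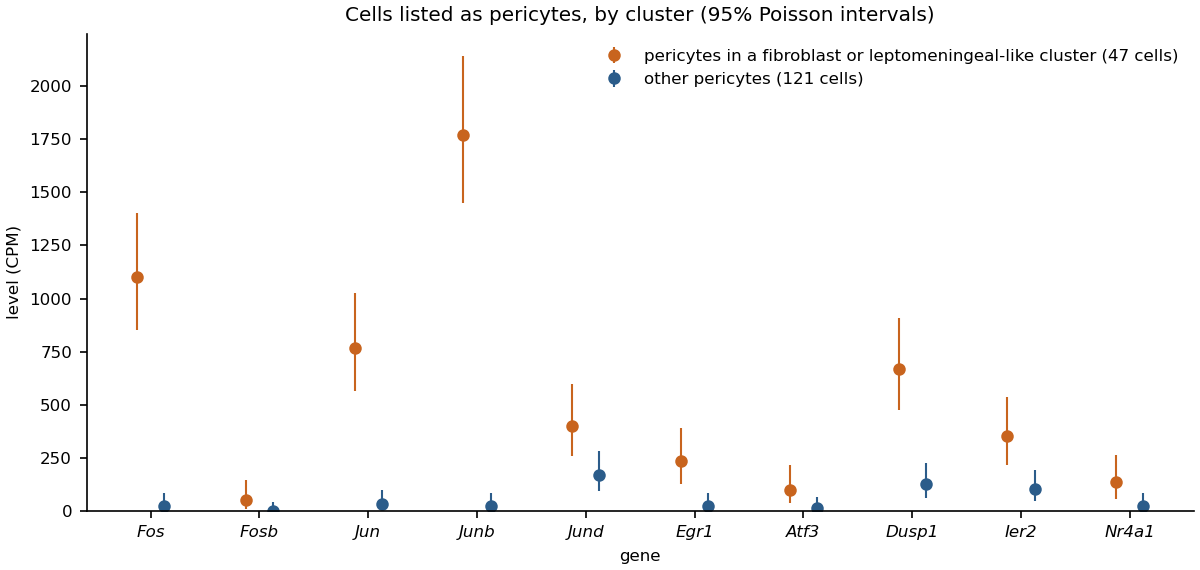
Level of each member (CPM, vertical axis starting at 0) in the 47 cells listed as pericytes that lie in a fibroblast or leptomeningeal-like cluster and in the 121 others, with bars for 95% Poisson intervals. Fos, Jun, Junb and Dusp1 are above 600 CPM in the 47 cells and at or below 125 CPM in the others.

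The share of transcripts held by the cells richest in them is given as a description. In microglia, the 28 cells with most Fos, 5% of all, held 80.7% of its UMIs, and the highest cell had 19. The same share of cells held 80.8% of Dusp1 UMIs, 53.1% of Jund UMIs, 49.0% of Jun UMIs, 44.8% of Junb UMIs and 50.7% of all member UMIs. For all member UMIs the value was 78.7% in pericytes, 41.7% in VSMCA and 27.9% in EPC. In endothelial cells the top 29 cells held 35.8% of Dusp1 UMIs and 210 of the 840 member UMIs, with 358 of 573 cells holding at least 1. These shares depend on how many UMIs a gene has and how many cells a type has, and no difference between them was tested.

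Cells with Fos held several other members more often than cells without it. After thinning to 500 UMIs, 56 of 542 microglia (10.3%, 7.90% to 13.2%) held 3 or more of the 10 members, and the highest cell held 8. The share was 8.70% in VSMCA (20 of 230 cells), 2.46% in endothelial cells, 0.541% in astrocytes (1 of 185 cells) and 0 of 88 in EPC. Among the 50 microglia with Fos, Junb was found in 70.0% (55.4% to 82.1%) and in 25.2% (21.4% to 29.3%) of the 492 without it. Dusp1 was found in 30.0% and 4.07%, Ier2 in 24.0% and 2.85%, and Atf3 in 10 of the 50 cells with Fos and 1.42% of those without. For 7 of the other 9 members the intervals with and without Fos did not overlap, and for Fosb and Nr4a1, found in 2 cells each with Fos, they did. In VSMCA the intervals stood apart for Jun, Junb, Dusp1 and Nr4a1 (16.1% of 31 cells with Fos, 0.503% of 199 without).

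Microglia with 3 or more members also carried more transcript of related genes. Of the feedback and early-response regulators, a list of 27 genes that are induced beside the members or that end the response, 20 could be tested, and 16 were at least 2-fold higher in these 56 cells than in the other 486, with 0 lower. Over all genes but the members, 6.42% of 6900 were higher and 23.0% lower. Klf2, a transcription factor, was at 2959 CPM (2552 to 3412) against 184 CPM (146 to 229), and Ppp1r15a, which restores protein synthesis after stress, at 407 CPM (266 to 596) against 18.2 CPM (7.85 to 35.8). Ier3 had 10 UMIs in the 56 cells and 1 in the 486. Ier3, Gadd45b, Klf4 and, among the cytokines, Il1b reached 10 CPM only through the 56 cells, so they had to differ and their part of the counts is no support. Cytokines made on activation were higher for 6 of 7 tested, with Il1b at 344 CPM against 6.82 CPM, Ccl4 at 4822 CPM against 448 CPM and Ccl3 at 1957 CPM against 296 CPM. The other, Cxcl10, had 0 UMIs in the 56 cells, whose interval reached 57.7 CPM, and 18.2 CPM in the 486, so that a difference was not detectable at this depth. Of 8 heat shock genes 4 were higher, led by Hspa1a at 658 CPM against 205 CPM, and the intervals of 1 of the 4, Hspa1b, overlapped. Of 6 glucocorticoid response genes 2 were higher (Mt2 at 157 CPM against 43.2 CPM, and Sgk1 at 611 CPM against 211 CPM), and of 3 AP-1 relatives 0 were, with Batf3 at 109.6 CPM against 59.1 CPM. Of 9 upstream regulators, which are present before induction, 0 were higher and 2 lower, shares near those of all genes, and the intervals of both lower genes (Map2k1 and Elk4) overlapped. The cells with 3 or more members had a median of 1022 UMIs against 788. Their 7 microglia markers summed to 15608 CPM against 18387 CPM, and their endothelial markers to 783 CPM (581 to 1032) against 577 CPM (509 to 653).

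**Figure D4:**
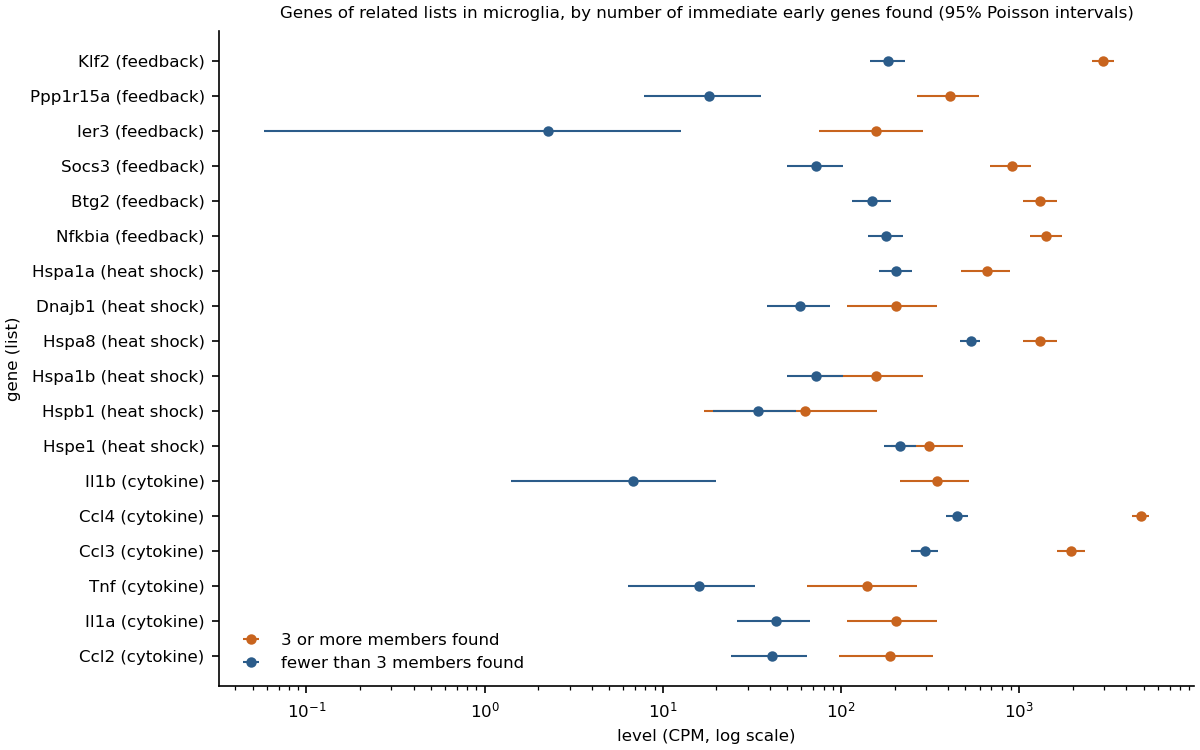
Level (CPM, log scale) of up to 6 genes from each of 3 related lists, those with the highest ratio among genes of 10 or more UMIs, in the 56 microglia with 3 or more members found and the 486 with fewer, with bars for 95% Poisson intervals. The separation is wide for Klf2, Ppp1r15a, Ccl4 and Ccl3, and the intervals overlap for Hspa1b, Hspb1 and Hspe1, among others.

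Feedback regulators were also higher in VSMCA with 3 or more members. In the 20 cells with 3 or more members, 14 of 19 feedback regulators were at least 2-fold higher than in the other 210, where 10.2% of 6494 genes were. The 2 called lower, Ier5 and Ier5l, had 0 UMIs in the 20 cells, with intervals that overlapped, beside 36.7% of genes. Among the 14 called higher, intervals also overlapped for some, such as Ier3 (48.3 to 347, and 27.9 to 85.6) and Nfkbia (65.5 to 388, and 53.1 to 126). Socs3, an inhibitor of cytokine signaling, was at 535 CPM (317 to 846) against 10.9 CPM (2.25 to 31.9), Btg2, which slows cell division, at 1754 CPM against 117 CPM, and Klf2 at 2854 CPM against 219 CPM. Of 8 heat shock genes 6 were higher. One of them, Hspa1b, reached 10 CPM only through the 20 cells. The 1 cytokine that could be tested, Ccl4, had 0 UMIs in the 20 cells, whose interval reached 109.7 CPM, and 21.9 CPM in the others, so that a difference was not detectable at this depth. Their 6 VSMCA markers summed to 31569 CPM against 23080 CPM, and their pericyte markers to 1248 CPM against 3895 CPM.

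The related lists were then counted by type. Against the other listed cells, with the other shares of genes passed given above, 8 of 22 feedback regulators were at least 2-fold higher in microglia and 4 lower, led by Zfp36, which destabilizes cytokine transcripts (239 CPM against 36.7 CPM), and Socs3 (179 CPM against 25.8 CPM), with Cyr61 lowest (1.97 CPM against 74.1 CPM). Cytokines were higher for 5 of 6 there, with Ccl4 at 996 CPM against 31.0 CPM. Of 5 AP-1 relatives Batf3 was higher (65.1 CPM against 4.59 CPM) and Maff lower (0 against 17.2 CPM). Batf3 reached 10 CPM only through microglia, so it had to differ and is no support. The same could hold for cytokines of low level, so the count of 5 of 6 is no support either. In endothelial cells 6 of 22 feedback regulators were higher and 6 lower, Klf4 (221 CPM against 27.5 CPM), Nfkbia, the inhibitor of NF-kappaB (945 CPM against 189 CPM), and Klf2 (1491 CPM against 376 CPM) leading. In astrocytes 16 of 22 feedback regulators and 7 of 8 heat shock genes were lower, while 3 of 6 glucocorticoid response genes were higher, beside 10.5% of all genes (Mt2 at 2200 CPM against 433 CPM). In EPC 14 of 22 feedback regulators were lower and 3 of 8 heat shock genes higher, beside 12.3% of all genes (Hsp90aa1 at 2248 CPM against 284 CPM). No relative in the EGR and NR4A list reached 10 CPM over the listed cells.

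Across libraries, the cells were grouped into clusters made without the members and the related lists, and named from marker lists. Values by class leave hormone genes out of the totals. Within 1 class, the neuron-like cells, Egr1 was again highest in libraries 1 to 3. Egr1 stood at 480, 536 and 556 CPM in the neuron-like cells of libraries 1, 2 and 3, at 151, 54.7 and 70.9 CPM in those of libraries 4, 5 and 6, and at 35.8, 25.5 and 35.6 CPM in those of libraries 7, 8 and 9. The values of libraries 7 to 9 rested on few UMIs (6 in library 8). A step between libraries 5 and 6 and libraries 7 to 9 is therefore not established for Egr1. Nr4a1 was at 171, 168 and 154 CPM in libraries 1 to 3 and at 5.08 to 63.8 CPM in the other 6. Junb was at 436, 335 and 263 CPM in libraries 1 to 3 and at 25.5 to 136 CPM in the rest, and Jund, by contrast, was highest in libraries 4 to 6, at 472 to 544 CPM. The summed level was 1646 to 1826 CPM in libraries 1 to 3, 970 to 1042 CPM in libraries 4 to 6 and 328 to 528 CPM in libraries 7 to 9. After thinning, Egr1 was found in 18.8% to 21.0% of neuron-like cells in libraries 1 to 3 and 0.637% to 7.24% in the others. These were not the same neurons: in libraries 1 to 3 a cluster led by Nrgn and Slc17a7 held most of them (56.5% to 86.4%), and in libraries 4 to 9 a cluster led by Gad1 and Nrsn2 did (88.7% to 98.9%). Within that second cluster, the summed level was 978 to 1018 CPM in libraries 4 to 6 and 324 to 541 CPM in libraries 7 to 9.

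Related genes differed in their order of libraries. In sums over all cells, with hormone genes in the totals, Arc, a synaptic gene induced by firing, was at 77.5, 83.8 and 87.4 CPM in libraries 1 to 3, 10.8 to 38.3 CPM in libraries 4 to 6 and 0.45 to 2.03 CPM in libraries 7 to 9. Egr4 was at 73.4 to 77.6 CPM in libraries 1 to 3 and at most 8.32 CPM elsewhere. Egr2 was instead highest in library 5, at 42.9 CPM against 18.6 to 22.3 CPM in libraries 1 to 3, and Nr4a2 in library 4, at 47.9 CPM against 18.5 to 35.5 CPM in libraries 1 to 3. Of the 7 genes of the neuronal activity list, 4 could be tested. All 4 were at least 2-fold higher in the highest library than in the median of the others, beside the 29.6% given above. Homer1 (92.6 to 203 CPM in libraries 1 to 3, 3.69 to 19.1 CPM elsewhere) and Bdnf (41.4 to 73.4, and 2.46 to 23.1 CPM) reached 10 CPM largely through libraries 1 to 3. The filter thus favoured a difference, and the count is no support. Of the feedback list 7 of 24 passed, beside the same 29.6%. Btg2 was highest in libraries 4 to 6, at 293, 371 and 327 CPM against 44.9 to 157 CPM elsewhere.

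Microglia-like cells differed between libraries too, over a wider range than their counts of cells support for every gene. Their summed level was 998 CPM (844 to 1173) in library 1, between 2658 and 3821 CPM in libraries 2, 3, 4, 7, 8 and 9, and 7815 CPM (6936 to 8776) in library 5. Fos was at 101 CPM in library 1, from 15 UMIs, and 1776 CPM in library 5, from 65. The microglia-like cells of libraries 1 and 5 had medians of 308.5 and 433 UMIs, and 24 and 26 of them reached 500 UMIs. Hormone genes took 22.4% of UMIs in the microglia-like cells of library 5 and 18.9% in those of library 4, and their part in the result was not tested. In libraries 1, 2, 4 and 5 most microglia-like cells lay in a cluster led by Crybb1 and C1qa, and in libraries 3, 7, 8 and 9 in one led by P2ry12. Within the Crybb1 cluster the summed level was 1036 CPM in library 1 and 7625 CPM in library 5. Within library 7 it was 1398 CPM (1047 to 1828) in the Crybb1 cluster and 3930 CPM (3797 to 4066) in the P2ry12 cluster.

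The cells that only libraries 4, 5 and 6 held in numbers carried high levels once hormone genes were left out of the totals. In the cluster led by Gh the summed level was 3360, 10227 and 3924 CPM in libraries 4, 5 and 6, and in the pituitary endocrine-like clusters 3366, 8134 and 3891 CPM. Fos in the Gh-led cluster was at 513, 2393 and 1043 CPM, and Atf3 at 5.88 CPM (3 UMIs), 269 CPM and 77.5 CPM. In the pituitary stem or folliculostellate-like cluster library 6 was highest instead, with 5224, 5396 and 9474 CPM, and Fos at 980, 997 and 2286 CPM. The Gh-led cluster has hormone genes in 60.5% to 65.6% of its UMIs, so that the same counts give 1327 to 3516 CPM with them in the total. Over all cells of libraries 4, 5 and 6 that total gave 2175, 3403 and 2868 CPM. After thinning, any member was found in 29.5% to 46.2% of Gh-led cells, against 44.8%, 50.8% and 40.1% of all cells of those libraries. The share was 46.8% to 71.6% in the pituitary endocrine-like clusters and 56.8% to 69.7% in the stem or folliculostellate-like cluster.

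In endothelial-like cells 8 of 10 members were at least 2-fold higher in the highest library than in the median of the others, beside 28.6% of 7806 genes. Fos was at 347, 562 and 1221 CPM in libraries 4, 5 and 6 and at 17.7 to 178 CPM elsewhere, and the summed level reached 4911 CPM (4407 to 5457) in the 79 cells of library 6 against 1203 CPM in library 8. Hormone genes took 11.6% of UMIs in those 79 cells, and their part was not tested. A cluster led by Igfbp3 and Kdr held most endothelial-like cells in libraries 1, 2, 4, 5 and 6 and one led by Slco1a4 in the others. Within the Igfbp3 cluster alone, libraries 4, 5 and 6 were at 2603, 4422 and 5594 CPM and the other 6 between 932 and 1634 CPM. In EPC-like cells 2 of the 8 members that could be tested passed (Fos and Ier2), beside 8.19%, and Jund was at 1059, 975 and 865 CPM in libraries 4, 5 and 6 against 532 to 601 CPM in libraries 7, 8 and 9, with no overlap between the sets. In neuron-like cells 5 of 9 passed (Junb, Egr1, Dusp1, Ier2 and Nr4a1), beside 21.3%, and in astrocyte-like cells 4 of 7, beside 21.1%, at summed levels of 192 to 628 CPM. In microglia-like cells 7 of 10 passed, beside 42.5%, in macrophage-like cells 8 of 10, beside 61.7%, and in VSMCA-like cells 3 of 10, beside 51.2%. Pericyte-like cells were at 365 to 502 CPM in the 3 libraries with 50 or more of them. HbVC-like cells were lowest, at 61.7 and 72.4 CPM in libraries 7 and 9. Some of the calls by class rest on few UMIs in the highest library, and their intervals were not screened. The highest Nr4a1 in endothelial-like cells was 78.3 CPM, in 110 cells of library 1 with a median of 377.5 UMIs. The highest Fosb in VSMCA-like cells was 86.6 CPM, in 123 cells of library 2 with a median of 339 UMIs.

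**Figure D5:**
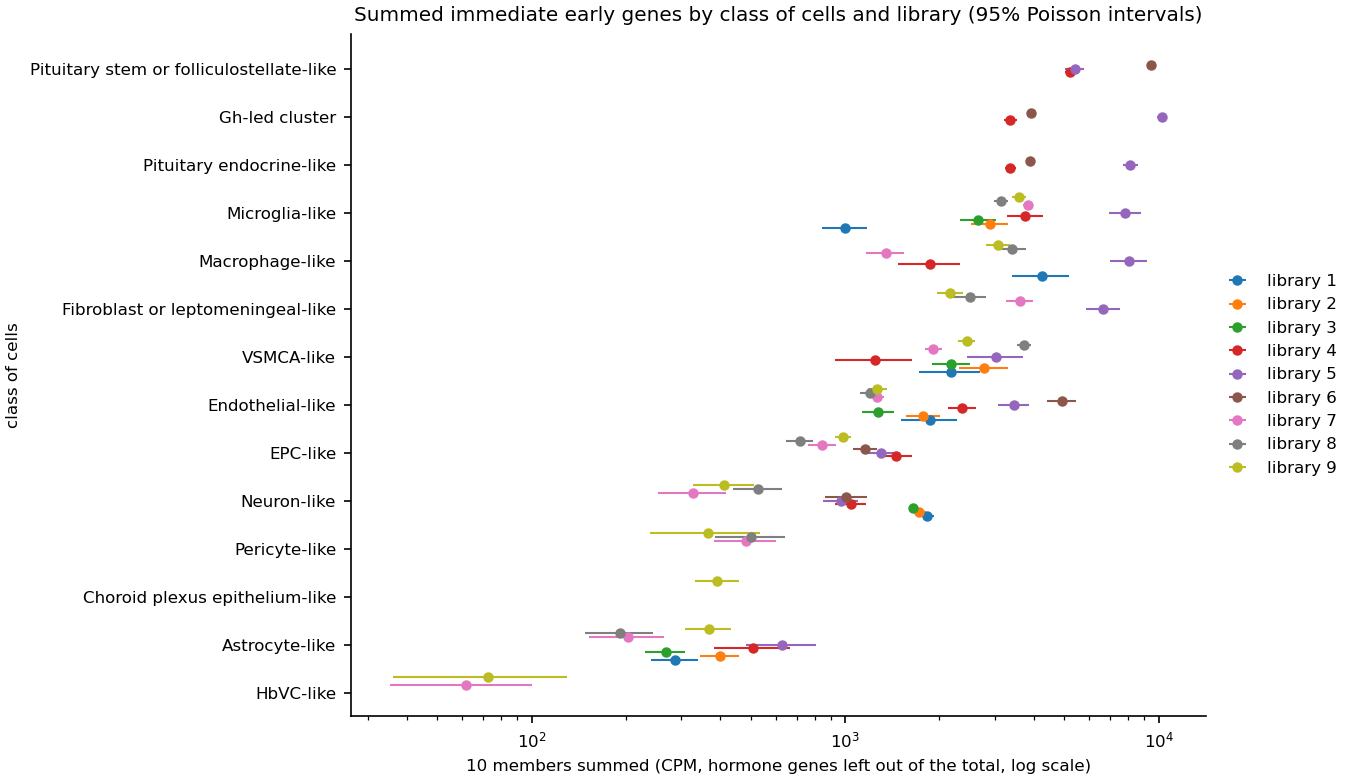
Summed level of the 10 members (CPM without hormone genes in the total, log scale) by class of cells (vertical axis, ordered by the median) in each library with at least 50 cells of the class, with bars for 95% Poisson intervals. Neuron-like cells fall into 3 steps by library, microglia-like cells reach from 998 to 7815 CPM, and HbVC-like cells lie below 100 CPM.

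Over the 73 sets of 1 class in 1 library with at least 50 cells, Fos and Junb were the pair of members with the most similar pattern, with r = 0.93 for log2(CPM + 10), and Jun and Nr4a1 the least similar, with r = 0.38. Egr1 was closest to Junb (r = 0.78) and Nr4a1 to Egr1 (r = 0.75). Outside the lists, the 5 genes most like the summed members were Rpl10 (r = 0.86), Eef1a1, Rps12, Rps3a1 and Rpl17 (r = 0.84), which encode ribosomal proteins and an elongation factor. Single members were most like Rpl10 (Fos 0.77, Junb 0.75 and Atf3 0.71), Rps12-ps3 (Jun 0.84 and Dusp1 0.79), Rps18 (Ier2, 0.75), Epcam (Fosb, 0.60), Arl1 (Egr1, 0.62) and Tesc (Nr4a1, 0.65). Rps12-ps3 is a pseudogene copy that can share reads with Rps12. With 1 CPM added in place of 10, the nearest genes of Fosb, Junb, Egr1 and Nr4a1 were others (Rps12, Rps12, Eef2 and Eif5a), and Egr1 and Atf3 were the least similar pair (r = 0.38). The sets share libraries, depth and classes, so r is a description and has no test.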

How the data were processed

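Single cells of 9 libraries were sequenced from 3′ ends. The authors deposited 1 table of UMI counts for 18634 genes and 29571 cells, made with Cell Ranger 2.2.0 on GRCm38 and already filtered for cells. The annotation release is not given in the sources used here. The submitters' processing notes also name R 3.5.3. Cell types of the brainstem NS library were taken from the list of barcodes supplied with the study. No sample labels map the other libraries to groups, so libraries are described and not averaged.

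Counts were summed per library, listed type or class and scaled to CPM. Intervals are 95% throughout, exact Poisson for levels and Clopper-Pearson for percentages of cells. UMI counts limit precision, and intervals cover counting error only, with 1 library per group and no replicate. Shares were also computed after thinning each cell to 500 UMIs. A gene was tested if it had at least 10 CPM over the cells compared, and called if the ratio was at least 2-fold after adding 10 CPM to both sides, with no p-value. For classes, log counts of 2000 variable genes, chosen without the members and related lists, were reduced to 13 principal components (20 neighbours) and clustered with leidenalg 0.10.2 at resolution 1. A cluster was named from at least 3 markers at 2-fold in 10% of its cells, unless another class had as many or its 10 leading genes went against the name. Hormone genes were left out of totals for class values and, where stated, for libraries. That naming rule was set after the clusters were seen. Sets of fewer than 50 cells were left out of class comparisons, and no doublet caller was run. All 10 members were named in full. From the related lists, genes were named from the 3 of largest and the 3 of smallest ratio, though not all of these are printed, with the 5 genes most like the summed members and 1 per member, of which that for Jund is not reported here. The members and lists were chosen with earlier results of these data known. Promoters are from RefSeq (GRCm38.p6). Scripts used Python 3.11.15, numpy 2.4.6, scipy 1.17.1 and scikit-learn 1.9.0 and were tested on simulated data. Alternatives were other totals, depths, thresholds, a mean over cells, free RNA subtraction and another clustering.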

Additional observations from a re-analysis of the deposited data

How the results depend on the processing

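No paired analysis was possible because each group has 1 library and no test was made. Of 277 alternative values, 180 moved by less than their counting interval (counts of members by less than 1.5 times), 96 by more and 1 reversed. The summed level of library 5 over library 1 was 2.56, and 3.66 with totals without hormone genes, 2.87 as a mean over cells and 2.10 in cells of at least 1000 UMIs. The share of cells of library 4 with any member was 58.0%, and 44.8% after thinning to 500 UMIs, 29.1% after thinning to 250 UMIs and 70.2% in cells of at least 1000 UMIs. The summed level of microglia over the other listed cells was 2.75, and 2.53 without mitochondrial and hemoglobin genes, 2.58 as a mean over cells, 3.34 in cells of at least 1000 UMIs, 3.32 with free RNA subtracted and 3.36 with clusters in place of listed types. The share of microglia with any member was 60.1%, and 48.5% after thinning to 500 UMIs. In microglia-like cells library 5 over library 1 was 6.07, and 7.83 without hormone genes in the totals and 3.92 after thinning, which left 26 and 24 cells. Egr1 in the same comparison reversed after thinning, at 0.231, and the cause was not tested. Across libraries, with genes of at least 50 CPM, the members past the mark went from 6 to 4 (33.9% of genes). Over the listed cells, 6 members could be tested at this setting (Fosb, Egr1, Atf3 and Nr4a1 could not). Those past the mark went from 5 to 3 in microglia (11.4% of genes at this setting), 10 to 6 in astrocytes (34.7%), 2 to 0 in pericytes (5.56%) and 2 to 1 in VSMCA (6.12%). Each member lost from these counts was one that could not be tested, so the falls were fixed by the filter. With genes of at least 10 CPM, leaving out the cells of the fibroblast or leptomeningeal-like cluster gave 0 in pericytes. Thinning to 250 UMIs, thinning within classes, hormone-free totals for counts of members, and leaving out shared barcodes, libraries 4 to 6 or that cluster were chosen after seeing the data. Among the listed types, depth limits Fosb, Egr1, Atf3 and Nr4a1 most, which rest on few UMIs in many of them. Time between death and capture, and the free RNA of each droplet, were not measured here.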
